A study of Mus musculus with 18 samples.

Results

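The estradiol by doxorubicin interaction asks, gene by gene, whether the uterus answered estradiol (E2) differently when the mouse had also received doxorubicin (DOX). It was computed from 12 of the 18 libraries of the series as the E2 minus OIL difference in the DOX arm less the E2 minus OIL difference in the PBS arm, so the members were fixed by the treatment labels and not by any measured value. All libraries came from whole uterus of ovariectomized adult CD-1 mice, an outbred stock, and each was labelled with a DOX treatment (DOX or PBS) and a hormone treatment (OIL, E2 or P4). The 4 groups used were PBS OIL (vehicles for both agents), PBS E2 (estradiol alone), DOX OIL (doxorubicin alone) and DOX E2 (both), with 3 libraries each. The remaining 6 libraries, given progesterone (P4), entered the fit through its shared estimate of the spread. The series title gives the question, which is how this chemotherapeutic agent alters the uterine response to estrogen.

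The 12 libraries held 18042357 to 39783785 counts, and mitochondrially encoded genes took 2.63% to 3.73% of them. PBS E2 replicate 1 was the deepest library and stood apart from the other PBS E2 libraries for several genes below. The SD over genes of its log2 difference from the PBS OIL mean was 1.16, against 0.874 and 0.983 in replicates 2 and 3. No dose or time of collection is given, and the labels do not say that each library is its own mouse. The spread behind every p-value is that among these libraries and may be technical. A whole uterus holds luminal and glandular epithelium, stroma, myometrial smooth muscle, vessels, mesothelium and attached fat. In such bulk RNA, fewer cells of a type and less RNA per cell cannot be told apart.

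Estradiol acts on the uterus through estrogen receptor alpha, the product of Esr1. After ovariectomy has removed the main source of the hormone, a dose of estradiol brings on water uptake, protein synthesis and secretion, and later cell division in the epithelium. Secreted proteins are folded in the endoplasmic reticulum, whose chaperones are induced by the unfolded protein response when the folding load grows. Doxorubicin is an anthracycline that poisons topoisomerase II, which relieves the twisting of DNA during transcription and replication.

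The estradiol response was larger after DOX, in both directions. Of 15494 genes tested, 3553 had an interaction at an adjusted p under 0.05 (22.9%), of which 1568 were higher after DOX (10.1%) and 1985 were lower (12.8%). A difference of at least 2-fold was reached by 1339 of them (8.64%), 292 higher (1.88%) and 1047 lower (6.76%). E2 changed 9519 genes in the PBS arm (61.4%, of which 29.6% higher and 31.9% lower) and 11254 in the DOX arm (72.6%, of which 35.1% higher and 37.5% lower). The SD over all genes of the log2 response was 1.04 in the PBS arm and 1.49 in the DOX arm, and without each of the 12 libraries in turn it ranged from 1.003 to 1.141 and from 1.495 to 1.573.

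Sorting the interaction genes by what E2 did in each arm gave 1350 genes with a larger rise after DOX (8.71%) and 1834 with a larger fall (11.8%). Among these, 423 of the larger rises and 606 of the larger falls did not pass the test in the PBS arm. An arm that did not pass counted by its smaller size alone, whichever its sign. A smaller rise was seen for 113 genes (0.729%) and a smaller fall for 173 (1.12%). The sign turned, with both arms passing, for 61 genes. Of these, 30 went from a rise to a fall (0.194%) and 31 from a fall to a rise (0.200%). Another 22 interaction genes passed in neither arm (0.142%). Compared directly, DOX against PBS under OIL called 2 genes (0.0129%) by the edgeR test, Rfx2 higher (0.00645%) and Ddit4 lower (0.00645%), with 1253 at an unadjusted p under 0.05. Under E2 the same comparison called 6358 genes (41.0%, of which 20.4% higher and 20.6% lower), among them 3360 of the 3553 interaction genes. The number of interaction genes ran from 2427 (without PBS E2 replicate 3) to 4898 (without PBS E2 replicate 1) as single libraries were left out. Those higher after DOX ran from 844 (without DOX E2 replicate 1) to 2357 (without PBS E2 replicate 1). Fitted on the 12 libraries alone, without the P4 libraries, 2414 genes had an interaction.

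**Figure D1:**
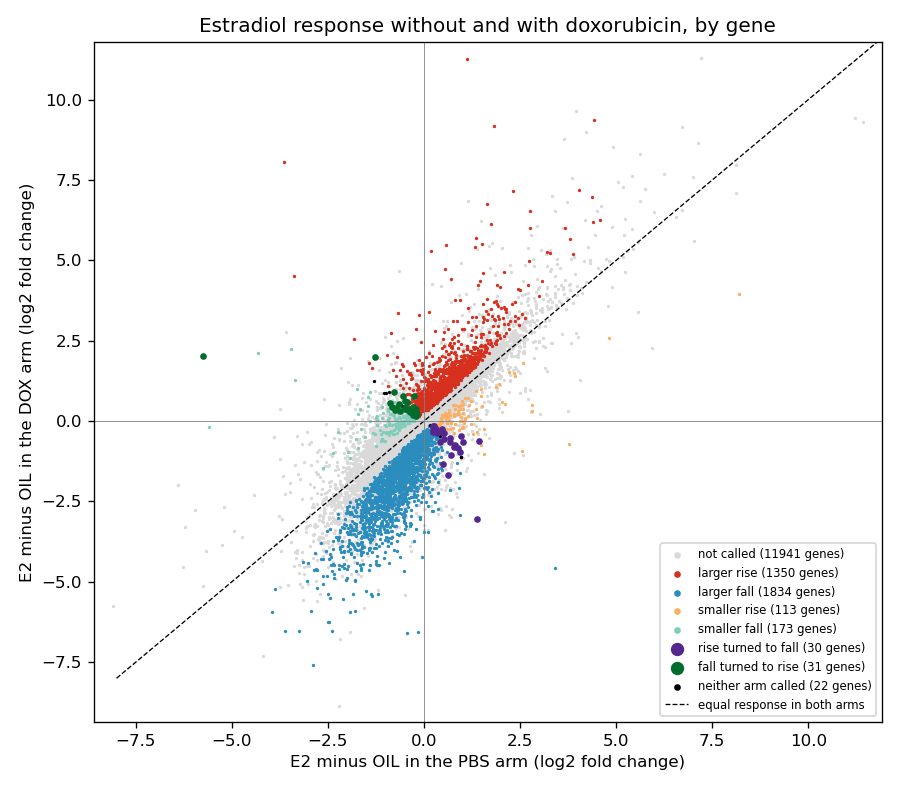
Each point is 1 of 15494 genes, with the log2 E2 minus OIL fold change in the PBS arm on the x axis and in the DOX arm on the y axis, coloured by class. The 1350 larger rises lie above the dashed line of equal response and the 1834 larger falls below it, while the 61 genes whose response changed sign sit in the upper left and lower right corners.

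The functions behind these numbers were described with 46 lists of genes. Of these lists, 14 had called members in 1 direction, 28 in both and 4 in neither. Among endoplasmic reticulum chaperones 26 of 30 tested members were higher and 0 lower. Of secretory translocation and coat genes 18 of 29 were higher and 0 lower. At the other end, 13 of 22 members of the circadian clock were lower and 0 higher, and 12 of 31 brakes on PI3K and mTORC1 signalling with autophagy genes were lower and 2 higher. The median interaction over all genes was 0.01 on the log2 scale. The share of called members was at most 33.3% in several of the lists below and is given beside the count for those. Of all genes 22.9% were called, 10.1% higher and 12.8% lower.

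**Figure D2:**
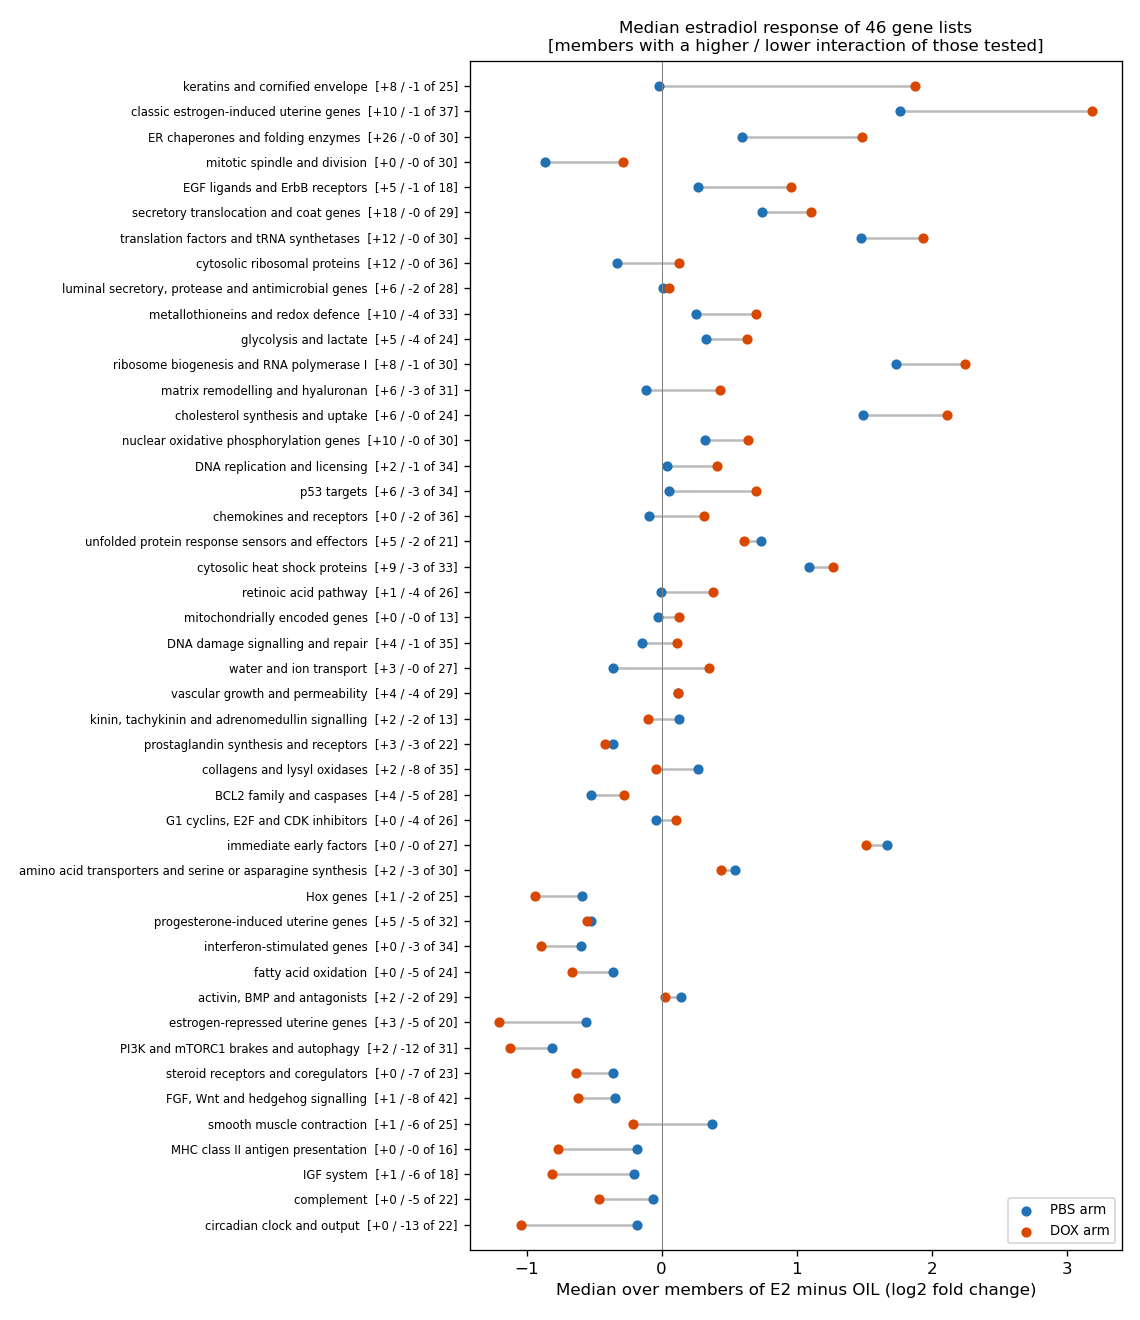
Each row is a gene list, with the median over its members of the log2 E2 minus OIL fold change in the PBS arm (blue) and the DOX arm (orange). Brackets give the members with a higher and a lower interaction of those tested. The endoplasmic reticulum (ER) chaperones move from 0.60 to 1.48 and the circadian clock from -0.18 to -1.04.

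List counts depended on the fit. With a score of adipocyte markers as a covariate, no cytosolic ribosomal protein was called (12 without it), and higher members went from 8 to 5 in ribosome biogenesis, from 6 to 3 in cholesterol synthesis, from 8 to 4 among keratins, from 9 to 5 among cytosolic heat shock proteins, from 4 to 1 in DNA damage and from 3 to 1 in water and ion transport, where 2 were then lower. Vascular genes went from 4 to 8 higher and collagens from 2 to 4. Lower members went from 8 to 5 among collagens and from 4 to 2 in glycolysis and among mesothelial markers. They went from 3 to 1 in the prostaglandin list and from 2 to 1 in the unfolded protein response. Adipocyte markers also went from 4 to 2 lower, but the score was made from these same markers. The score, their mean log2 CPM, was itself 7.49, 4.56 and 5.75 in PBS E2 and 1.54, 1.49 and 4.22 in DOX E2. The covariate thus shares part of the contrast, and the cause of a lost call in any list was not tested. Of the chaperones 21 were still higher, of the translocation genes 18, and of the clock genes 13 were lower.

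Fitted on the 12 libraries alone, higher members were fewer for ribosomal proteins (1), ribosome biogenesis (4), translation (6), oxidative phosphorylation (5), cholesterol (3), glycolysis (3), p53 targets (3), DNA damage (1), estrogen-induced genes (6), luminal secretory genes (3), progesterone-induced genes (3), EGF signalling (3), heat shock proteins (5), vascular genes (2) and collagens (0). Lower members numbered 5 for collagens, 3 for the BCL2 family, 1 each for the prostaglandin list and the unfolded protein response, and 2 each for mesothelial and adipocyte markers. The chaperones kept 21 higher members in that fit. Voom gave more higher members, at 26 for translation, 18 for estrogen-induced genes, 15 for ribosome biogenesis and 14 for heat shock proteins, and more lower ones, at 13 for Wnt, FGF and hedgehog and 12 for steroid receptors.

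Of the 30 endoplasmic reticulum chaperones 24 rose with E2 in the PBS arm and 29 in the DOX arm, where the rise was larger. Their median log2 response was 0.60 in the PBS arm and 1.48 in the DOX arm, and all 26 called members were larger rises. The count kept to between 20 and 26 as single libraries were left out. Hspa5 (GRCm38, chr2:34771970-34777547), which encodes BiP, the main luminal chaperone of this compartment, stood at 254, 275 and 245 counts scaled to the library total (CPM) in PBS OIL and 253, 249 and 280 in DOX OIL. With E2 it reached 1126, 775 and 827 CPM in the PBS arm and 2542, 2413 and 2184 in the DOX arm. All DOX E2 libraries thus lay above every PBS E2 library, while the OIL groups overlapped. The interaction, which is the difference between the arms' log2 fold changes, was 1.37 (SE 0.30, adjusted p = 0.0049), from 1.82 without DOX to 3.19 with it.

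Hsp90b1 (chr10:86690209-86705509), the chaperone GRP94, stood at 363 to 390 CPM in PBS OIL and 346 to 416 in DOX OIL. It read 626, 537 and 505 CPM in PBS E2 and 1500, 1379 and 1193 in DOX E2, an interaction of 1.28 (SE 0.17, adjusted p = 0.00025). Pdia4 (chr6:47796141-47813430), a disulfide isomerase, showed 79.3 to 82.5 CPM in PBS OIL and 90.1 to 102 in PBS E2, a response that did not pass the test (log2 0.28, adjusted p = 0.054). In the DOX arm it went from 74.9 to 81.4 CPM to 202 to 270 CPM, a log2 rise of 1.602. Pdia3 and P4hb, further disulfide isomerases, had interactions of 0.84 and 0.74. In each of these genes the DOX E2 libraries stood above all PBS E2 libraries.

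Chaperone genes carry a known control site in their promoters, the endoplasmic reticulum stress element (ERSE, here CCAAT and CCACG with any 9 bases between them), so the 250 bases before the RefSeq start were searched on both strands. RefSeq windows on GRCm38.p6 were at hand for 26 of the 30 chaperones, 22 of the 26 called ones and 11870 of all 15494 tested genes. The element was found in 7 of the 22 called chaperones (31.8%) and in 0.177% of the tested genes with a window. Called or not, 8 of the 26 chaperones with a window held it (30.8%). Among larger rises it was present in 10 of 1060 windows (0.943%) and among larger falls in 0 of 1432. Those 10 include the 7 called chaperones and Syvn1, so they are no separate count. The 7 chaperones and Syvn1, a stress-response gene with the same letters, are shown because they were called for the interaction. Each stretch is 5′ to 3′ on the gene's strand, with the element in capitals, and CGTGG at its left end marks the opposite strand.
Hspa5, chr2:34772005-34772063, plus strand: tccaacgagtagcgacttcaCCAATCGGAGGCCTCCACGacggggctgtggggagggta
Hsp90b1, chr10:86705513-86705676, minus strand: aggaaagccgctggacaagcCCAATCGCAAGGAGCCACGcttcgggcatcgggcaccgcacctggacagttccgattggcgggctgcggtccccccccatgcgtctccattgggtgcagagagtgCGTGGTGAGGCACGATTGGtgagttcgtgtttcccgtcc
Calr, chr8:84847055-84847113, minus strand: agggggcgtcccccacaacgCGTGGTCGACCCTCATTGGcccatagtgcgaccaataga
Canx, chr11:50325780-50325838, minus strand: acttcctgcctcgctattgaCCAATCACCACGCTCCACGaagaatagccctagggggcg
Pdia6, chr12:17266471-17266529, plus strand: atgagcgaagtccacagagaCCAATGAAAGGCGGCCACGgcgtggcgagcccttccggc
Dnajc3, chr14:118937807-118937865, plus strand: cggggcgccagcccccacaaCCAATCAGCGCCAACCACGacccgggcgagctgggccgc
Creld2, chr15:88819500-88819558, plus strand: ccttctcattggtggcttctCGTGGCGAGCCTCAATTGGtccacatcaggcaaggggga
Syvn1, chr19:6046512-6046570, plus strand: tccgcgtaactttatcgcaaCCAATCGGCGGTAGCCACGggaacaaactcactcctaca

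The element begins 65 bases before the RefSeq start in Hspa5 and 44 in Syvn1. Hsp90b1 holds it on each strand, the farther one beginning 212 bases before the start. For Hspa5 the searched window ends at 34772089, inside the GENCODE gene printed above, which begins at 34771970. The interactions of these genes, in the order printed, were 1.37, 1.28, 1.14 (Calr, a lectin chaperone that binds calcium), 0.76 (Canx, its membrane-bound counterpart), 1.45 (Pdia6), 0.85 (Dnajc3, a cochaperone of BiP), 1.504 (Creld2) and 0.90. An eighth chaperone with the element, Ero1lb, an oxidase of disulfide bonds, fell with E2 in the PBS arm and was not called for the interaction (0.54, adjusted p = 0.088). Derl3, of the degradation machinery, held it too and was not called (0.58, adjusted p = 0.39). The shorter letters CCAAT and CCACG, both parts of the element, occurred in 77.3% and 72.7% of the called chaperones and in 40.3% and 44.2% of the tested genes. A match describes these letters and is no measurement of binding.

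The channel that feeds this compartment moved with the chaperones. Of the secretory translocation and coat genes 18 of 29 rose more after DOX, and the count ran from 15 to 22 without single libraries. Sec61a1, the pore of the translocation channel, stood at 164 to 174 CPM in PBS OIL and 157 to 174 in DOX OIL. It read 471, 350 and 377 CPM in PBS E2 and 737, 719 and 685 in DOX E2, an interaction of 0.87 (SE 0.15, adjusted p = 0.0011). Sec61b, another subunit of the channel, went to 30.9 to 42.0 CPM in PBS E2 and 64.5 to 78.8 in DOX E2 from 19.6 to 22.2 in the OIL groups. Sec11c and Spcs2, subunits of the signal peptidase that trims incoming proteins, had interactions of 1.03 and 0.64. Sec11c did not pass in the PBS arm (log2 -0.16, adjusted p = 0.19), and its DOX E2 libraries at 40.8 to 42.1 CPM were above all others, which lay between 20.6 and 27.0.

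The sensors and transcription factors of the unfolded protein response were less uniform. Of 21 tested, 5 were higher and 2 lower (33.3% called), and the count of higher members reached 10 without PBS E2 replicate 1. Syvn1, the ligase that marks misfolded proteins for degradation, went from 66.1 to 69.6 CPM to 102 to 148 in the PBS arm and from 68.02 to 74.5 CPM to 218 to 246 in the DOX arm. Derl2 and Sel1l, which work beside it, had interactions of 0.56 and 0.43 and passed with E2 in the DOX arm but not in the PBS arm. Eif2ak3 (chr6:70844515-70905245), the sensor kinase PERK, reversed: E2 lowered it to 24.7, 20 and 20.3 CPM from 31.9 to 34.1 in the PBS arm and raised it to 36.3, 42.7 and 38.3 from 30.8 to 32.0 in the DOX arm. Its interaction was 0.93 (SE 0.13, adjusted p = 0.00035). Atf4, Xbp1 and Ddit3, transcription factors of the pathway, were not called, with interactions of 0.40, 0.21 and 0.28 (adjusted p = 0.20, 0.46 and 0.38).

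**Figure D3:**
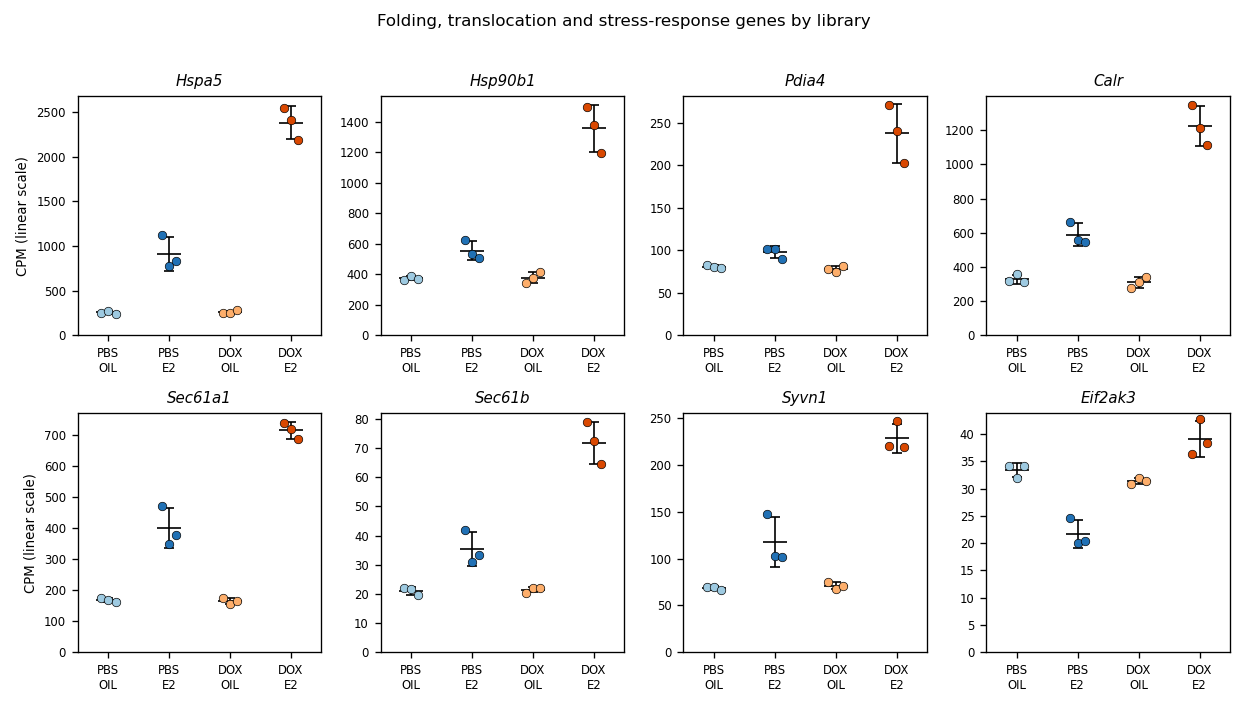
Points are CPM of single libraries on a linear axis from 0, with the mean and SD (n = 3) as bars, in PBS OIL, PBS E2, DOX OIL and DOX E2. For Hspa5, Hsp90b1, Pdia4, Calr, Sec61a1, Sec61b and Syvn1 the 3 DOX E2 libraries lie above every other library, and Eif2ak3 falls with E2 in the PBS arm and rises in the DOX arm.

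Other growth functions had calls in the same direction. Of 30 translation factors and tRNA synthetases 12 were higher and 0 lower, and Mars, which charges methionine onto its tRNA, went from 36.0 to 39.5 CPM to 87.2 to 123 in the PBS arm and from 35.7 to 39.0 to 160 to 172 in the DOX arm (interaction 0.70, SE 0.15, adjusted p = 0.0056). Of 30 nuclear genes of oxidative phosphorylation 10 were higher and 0 lower (33.3% called), with Cyc1 of complex III at an interaction of 0.55. Ribosome biogenesis gave 8 of 30 higher and 1 lower (30% called), led by Npm1 (nucleophosmin, 0.75) and Ncl (nucleolin, 0.68). Cholesterol synthesis and uptake gave 6 of 24 higher and 0 lower (25.0% called, against 22.9% of all genes called and 10.1% higher). Among them was Lss, which closes the sterol rings (0.72). These counts moved with single libraries. Without 1 library they ran from 5 (PBS E2 replicate 3) to 23 (PBS E2 replicate 1) for translation, from 4 (PBS E2 replicate 2, DOX E2 replicate 1) to 15 (PBS E2 replicate 1) for oxidative phosphorylation and from 4 to 16 (PBS E2 replicate 1) for ribosome biogenesis. The cholesterol count was 3 without any of 6 libraries and otherwise up to 7.

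Cytosolic ribosomal proteins had 12 of 36 higher and 0 lower (33.3% called), with medians of -0.33 in the PBS arm and 0.13 in the DOX arm. The count was 0 with the adipocyte score as a covariate, 1 in the fit of 12 libraries, 1 without DOX E2 replicate 1 and 27 without PBS OIL replicate 2. Rplp0, a protein of the ribosomal stalk, read 1678, 1088 and 1420 CPM in PBS OIL and 2240, 1963 and 1768 in DOX E2, and its call was lost under the first 3 of these settings. Cytosolic heat shock proteins gave 9 of 33 higher and 3 lower, and 3 to 13 higher without single libraries (3 without PBS E2 replicate 3 or DOX E2 replicate 1) with 1 to 6 lower (6 without DOX E2 replicate 3). Cct8 and Tcp1, subunits of the chaperonin that folds actin and tubulin, had interactions of 0.61 and 0.58. Hspa8, the constitutive cytosolic Hsp70, read 2520, 1598 and 1865 CPM in PBS E2 and 3947, 3453 and 3334 in DOX E2 (interaction 0.87, SE 0.25, adjusted p = 0.021).

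Members of the circadian clock were lower. Clock genes run a feedback loop in which CLOCK and BMAL1 drive the Per, Cry and Nr1d genes and the output factors Dbp, Tef and Hlf. Of 22 tested members 13 were lower after DOX and 0 higher, and the count was 12 or 13 without each library in turn. Dbp (chr7:45705088-45710203), an output factor that binds the D-box, stood at 216, 170 and 215 CPM in PBS OIL and 275, 179 and 185 in DOX OIL. E2 took it to 56.5, 109 and 103 CPM in the PBS arm and to 9.71, 8.46 and 10.6 in the DOX arm. All DOX E2 libraries were below every other library, and the interaction was -3.30 (SE 0.37, adjusted p = 8.0e-05).

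Nr1d1 (chr11:98767932-98775333), the repressor REV-ERB alpha, read 182 to 227 CPM in PBS OIL and 162 to 295 in DOX OIL, then 77.7, 85.7 and 91.2 in PBS E2 and 8.73, 9.03 and 14.5 in DOX E2. Its interaction was -3.10 (SE 0.39, adjusted p = 0.00017). Tef, an output factor related to Dbp, fell to 245 to 374 CPM in PBS E2 and to 82.8 to 109 in DOX E2 from 523 to 637 in the OIL groups. Per3, a period gene, fell to 74.1 to 144 CPM and 24.8 to 31.5 from 367 to 478. In all 4 of these genes the DOX E2 libraries lay below every other library.

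Other arms of the loop behaved differently. Per1 did not pass with E2 in the PBS arm (log2 0.37, adjusted p = 0.16) and fell in the DOX arm, from 120 to 189 CPM to 39.6 to 60.3, an interaction of -1.85. Per2 rose in the PBS arm from 204 to 219 CPM to 298 to 328 and did not pass in the DOX arm, where it stood at 223 to 259 and 219 to 237. Gm129, the repressor now called Ciart, reversed, from a log2 response of 1.43 in the PBS arm to -0.60 in the DOX arm. Clock and Cry1 rose in both arms and were not called for the interaction (0.06 and -0.06, adjusted p = 0.83 and 0.80). Arntl, which encodes BMAL1, stood at 5.85 to 12.4 CPM in PBS E2 and 19.4 to 23.7 in DOX E2, with an interaction of 0.81 that did not pass (SE 0.39, adjusted p = 0.14). The labels give no hour of collection, so the hour and the group cannot be told apart.

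The letters of the E-box (CACGTG), bound by CLOCK and BMAL1, were in the windows of 4 of the 11 called clock genes that had one (36.4%) and of 9.43% of the tested genes. The D-box (TTATGNAA) was in 2 of the 11 (18.2%) and in 2.48% of the tested genes. The stretches below, with the motif in capitals and 5′ to 3′ on the gene's strand, come from the called clock genes. Not printed are a D-box of Per1, beginning 24 bases before the start, and an E-box in a second promoter of Tef (chr15:81811256-81811301). The genes shown differ in class, since Ciart reversed while the others were larger falls.
Gm129 (Ciart), chr3:95882247-95882364, minus strand: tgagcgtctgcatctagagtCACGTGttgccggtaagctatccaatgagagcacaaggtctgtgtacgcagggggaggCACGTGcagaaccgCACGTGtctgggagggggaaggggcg
Per1, chr11:69098763-69098808, plus strand: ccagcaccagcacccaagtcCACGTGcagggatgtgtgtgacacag
Bhlhe41, chr6:145865548-145865593, minus strand: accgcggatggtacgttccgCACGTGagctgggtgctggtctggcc
Tef, chr15:81802526-81802571, plus strand: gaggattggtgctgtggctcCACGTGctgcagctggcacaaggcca
Per3, chr4:151044796-151044890, minus strand: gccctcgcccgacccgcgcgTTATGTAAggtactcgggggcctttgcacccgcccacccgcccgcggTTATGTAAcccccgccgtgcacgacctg

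Windows were at hand for 18 of the 22 clock genes, called or not. Cry1, whose window also holds an E-box, was not called. Bhlhe41, a repressor of the loop, read 11.8, 24.5 and 24.2 CPM in PBS E2 and 3.87, 4.69 and 4.93 in DOX E2 (interaction -1.99, SE 0.38, adjusted p = 0.0027). Palindromes of the estrogen and glucocorticoid response elements, GGTCA with TGACC and AGAACA with TGTTCT, each pair around any 3 bases, were each in 0.00842% of the tested genes' windows, too few to describe any list.

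Many brakes on growth signalling had lower interactions. In the list of PI3K and mTORC1 brakes with autophagy genes, 12 of 31 were lower and 2 higher, and the lower count ran from 11 to 13 without single libraries. Foxo4 (chrX:101254528-101260873), a transcription factor that AKT keeps out of the nucleus, stood at 78.5 to 85.8 CPM in PBS OIL and 69.0 to 88.3 in DOX OIL. It read 20.9, 33.0 and 28.5 CPM in PBS E2 and 6.82, 7.32 and 9.08 in DOX E2, an interaction of -1.82 (SE 0.22, adjusted p = 0.00013). Bnip3, a receptor for the clearance of mitochondria, went to 58.8, 28.3 and 35.5 CPM in PBS E2 and 9.71, 9.28 and 10.4 in DOX E2. Bnip3l and Ulk1, of the same clearance pathway and of the kinase that starts autophagy, had interactions of -1.24 and -0.91. Pik3ip1, an inhibitor of PI3K, and Deptor, an inhibitor of mTOR, also fell further, to 1.64 to 2.995 and 7.85 to 10.1 CPM in DOX E2 (interactions -2.001 and -1.69).

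One of the 2 higher members was Ddit4, the mTORC1 inhibitor REDD1, which was already lower with DOX under OIL. It stood at 40.6, 56.5 and 49.3 CPM in PBS OIL and 19.5, 21.1 and 18.01 in DOX OIL (log2 -1.32, adjusted p = 0.047). E2 brought the arms together, at 26.6 to 41.5 CPM in PBS E2 and 28.2 to 44.6 in DOX E2, where the groups overlap, so the arms differed in their OIL groups. Among insulin-like growth factor genes 6 of 18 were lower and 1 higher. Irs2, the adaptor of the insulin receptor, fell to 10.4 to 12.8 CPM in PBS E2 and 2.53 to 4.19 in DOX E2 from 34.0 to 43.5 in the OIL groups, an interaction of -1.62. Igf1, the growth factor itself, rose in both arms, to 395 to 621 CPM in PBS E2 and 844 to 1047 in DOX E2 from 54.2 to 93.9, and its interaction of 0.84 did not pass (SE 0.31, adjusted p = 0.061). It passed by DESeq2, by voom and without PBS OIL replicate 1 or PBS E2 replicate 1.

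**Figure D4:**
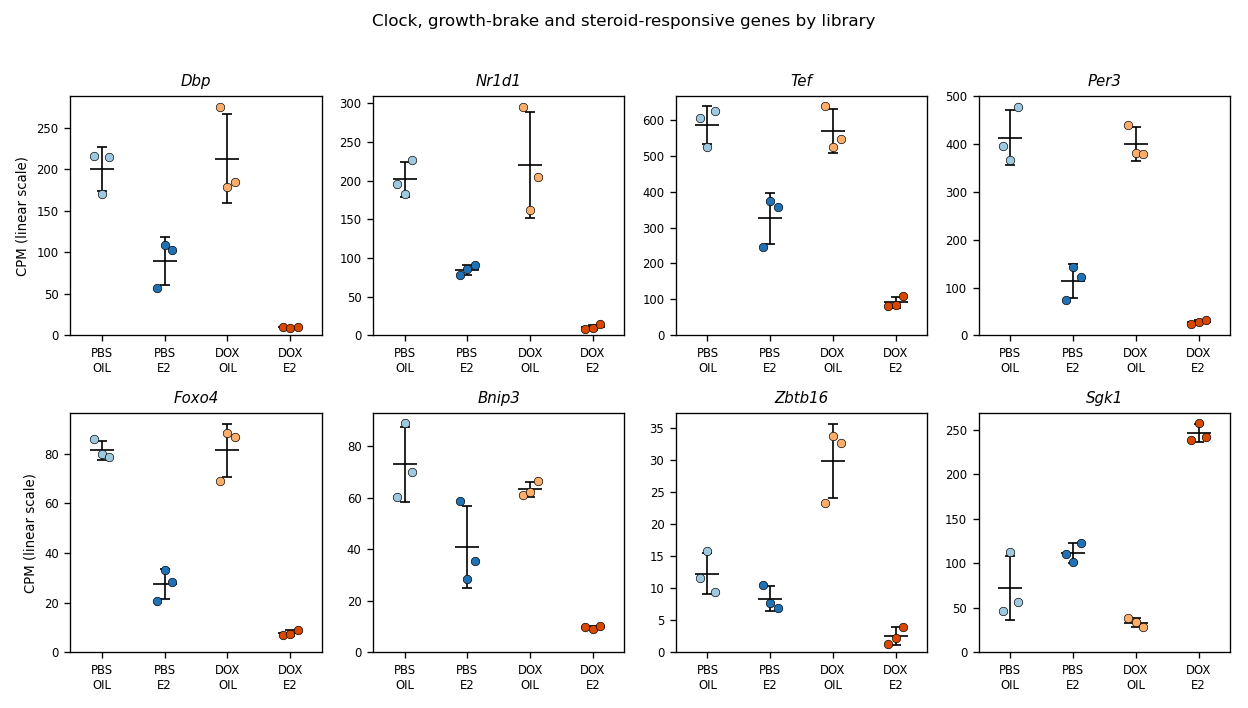
Points are CPM of single libraries on a linear axis from 0, with the mean and SD (n = 3) as bars. Dbp, Nr1d1, Tef, Per3, Foxo4 and Bnip3 are lowest in the 3 DOX E2 libraries, at 8.46 to 10.6 CPM for Dbp, while Sgk1 is highest there and Zbtb16 goes from highest in DOX OIL to lowest in DOX E2.

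Steroid receptors and their cofactors had 7 of 23 members lower and 0 higher (30.4% called), and 12 lower without PBS E2 replicate 1. Esr1, the receptor for E2, stood at 517 to 677 CPM in PBS OIL and 646 to 677 in DOX OIL. It read 507, 802 and 777 CPM in PBS E2 and 492, 356 and 434 in DOX E2, so every DOX E2 library was below every other group. The interaction was -0.86 (SE 0.21, adjusted p = 0.011), with a log2 response of -0.64 in the DOX arm and 0.22 in the PBS arm, the latter not called. Gpr30, a membrane receptor for estrogens also named Gper1, fell to 1.61 to 6.07 CPM in PBS E2 and 0.309 to 1.03 in DOX E2 (interaction -2.73). Nr3c1, the glucocorticoid receptor, and Pgrmc2, a heme chaperone of the progesterone receptor membrane component family, had interactions of -0.85 and -0.52. Pgr, the progesterone receptor and a standard E2 target, rose to 271 to 414 CPM in PBS E2 and 392 to 468 in DOX E2, and its interaction of 0.24 was not called (adjusted p = 0.56).

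Genes that steroids are known to regulate went both ways. Sgk1 (chr10:21882184-21999903), a kinase that opens sodium channels, read 46.7, 113 and 56.4 CPM in PBS OIL and 38.2, 34.1 and 28.3 in DOX OIL, then 101 to 123 in PBS E2 and 239 to 258 in DOX E2. The OIL groups did not overlap, and the interaction was 2.24 (SE 0.34, adjusted p = 0.00057). Zbtb16, a zinc finger factor induced by progesterone and glucocorticoids, read 9.46 to 15.8 CPM in PBS OIL and 23.2 to 33.7 in DOX OIL, which did not overlap, then 6.97 to 10.5 in PBS E2 and 1.34 to 3.98 in DOX E2. Its interaction was -2.98 (SE 0.39, adjusted p = 0.00024). Neither gene passed for DOX under OIL (adjusted p = 0.43 and 0.29). Tsc22d3, the glucocorticoid-induced leucine zipper, fell to 49.5 to 82.1 CPM in PBS E2 and 19.0 to 28.2 in DOX E2 (interaction -1.16). The list of progesterone-induced genes had 5 members higher and 5 lower of 32 (31.2% called). Without single libraries these counts were as low as 2 higher (PBS OIL replicate 2, DOX OIL replicate 2 or 3) and as high as 8 lower (PBS E2 replicate 1).

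Rfx2 (chr17:56775897-56831013), of a factor family that controls genes of cilia, had the smallest interaction p of all genes tested. It stood at 27.2, 38.1 and 27.7 CPM in PBS OIL and 56.4, 60.2 and 63.2 in DOX OIL, and this rise passed the test (log2 0.95, adjusted p = 0.047). E2 left it at 34.4, 34.0 and 31.8 CPM in the PBS arm and took it to 8.68, 9.64 and 10.3 in the DOX arm. The interaction was -2.75 (SE 0.21, adjusted p = 5.4e-06). Markers of oviduct and ciliated cells had 4 of 10 members lower, including Ccdc39, needed for ciliary beating, at 4.07 to 5.96 CPM in PBS E2 and 0.981 to 1.11 in DOX E2. Their summed level was 158 to 191 CPM in PBS OIL, 171 to 202 in DOX OIL, 99.3 to 129 in PBS E2 and 83.8 to 90.2 in DOX E2, and its part in the result was not tested.

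Among genes known for their induction by estrogen in the uterus 10 of 37 were higher and 1 lower (29.7% called). Their median responses were 1.77 in the PBS arm and 3.19 in the DOX arm. The count of higher members ran from 6 (without PBS E2 replicate 3 or DOX OIL replicate 3) to 17 (without PBS E2 replicate 1). Gjb2 (chr14:57098600-57104702), the gap junction protein connexin 26, stood at 6.605 to 16.4 CPM in the OIL groups. It read 41.9, 18.3 and 27.1 CPM in PBS E2 and 212, 220 and 139 in DOX E2, an interaction of 2.92 (SE 0.54, adjusted p = 0.0020). Padi2, which converts arginine to citrulline in proteins, read 144, 58.0 and 94.5 CPM in PBS E2 and 550, 484 and 335 in DOX E2. Ramp3, a partner of the adrenomedullin receptor, read 174 to 304 and 459 to 571 CPM. Greb1, an early target of the estrogen receptor, rose to 234 to 402 and 419 to 469 CPM and did not pass (0.69, SE 0.26, adjusted p = 0.065), although it passed by DESeq2, by voom, with the adipocyte score as a covariate and without PBS OIL replicate 2 or PBS E2 replicate 1. Lif, a cytokine needed for implantation, stood at 1.12 to 2.43 CPM in the OIL groups, 46.5, 16.04 and 35.6 in PBS E2 and 122, 151 and 136 in DOX E2 (interaction 1.69, SE 0.54, adjusted p = 0.034). Ltf, a secreted iron-binding protein, read 230 to 579 CPM in PBS E2 and 240 to 412 in DOX E2 and showed no response in either arm that passed.

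Of luminal secretory and antimicrobial genes 6 of 28 were higher and 2 lower (28.6% called), and 3 were higher without DOX OIL replicate 3 or PBS E2 replicate 3. Lcn2, an iron-scavenging secreted protein, read 144, 68.2 and 70.7 CPM in PBS E2 and 315, 414 and 233 in DOX E2 from 20.6 to 40.3 in the OIL groups (interaction 2.105, SE 0.48, adjusted p = 0.0068). Tmprss4, a membrane protease, stood at 2.41 to 5.42 CPM in PBS E2 and reached 10.1 to 19.7 in DOX E2. In the list of keratins and cornified envelope genes 8 of 25 were higher and 1 lower, with 2 higher without PBS E2 replicate 3 and 4 with the adipocyte covariate. Krt7, a keratin of simple epithelium, read 113, 59.0 and 56.6 CPM in PBS E2 and 253, 253 and 180 in DOX E2 (interaction 1.62). Ppl, a linker of the cell envelope, was the lower member, at 75.7 to 89.8 CPM in PBS E2 and 30.8 to 38.3 in DOX E2. Krt5, of basal and squamous epithelium, was called with 1 library far above the rest, at 1.55, 51.6 and 0.863 CPM in DOX E2.

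The summed level of 17 epithelial markers was 973 to 1381 CPM in PBS E2 and 1421 to 1944 in DOX E2, against 954 to 1478 in PBS OIL and 1061 to 1352 in DOX OIL, and 1 of the 17 was called, Krt7. Its part in the results above was not tested. Epcam, which defines epithelium, stood at 77.0 to 114 CPM in PBS E2 and 101 to 140 in DOX E2 and was not called (interaction 0.37, adjusted p = 0.41). Of 27 genes of water and ion transport 3 were higher (11.1%, against 10.1% of all genes higher), Cftr, Scnn1b and Scnn1g, the last under 1 CPM in every library and not called without any of 8 single libraries. Cftr, the chloride channel of secreting epithelium, read 10.3 to 13.8 CPM in PBS E2 and 45.6, 23.0 and 27.3 in DOX E2, an interaction of 1.85 (SE 0.39, adjusted p = 0.0043). Scnn1b, a subunit of the epithelial sodium channel, read 4.88 to 5.87 and 28.7, 23.2 and 8.79 CPM, and its call was lost with the adipocyte covariate.

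Of epidermal growth factor ligands, receptors and regulators 5 of 18 were higher and 1 lower (33.3% called). Only 3 were higher without any of PBS OIL replicate 1, DOX OIL replicate 2, DOX OIL replicate 3, PBS E2 replicate 2 or DOX E2 replicate 3. Egfr, the receptor for epidermal growth factor, read 62.7, 38.8 and 48.4 CPM in PBS E2 and 99.1, 122 and 124 in DOX E2 (interaction 1.04, SE 0.25, adjusted p = 0.0094). It did not pass with E2 in the PBS arm. Nrg2, a ligand, rose to 36.6 to 67.0 and 108 to 144 CPM. Lrig1 and Errfi1, both inhibitors of the receptors, were higher too, with interactions of 1.25 and 1.33, the latter not called without any of 6 single libraries. Of 42 genes of Wnt, FGF and hedgehog signalling 8 were lower and 1 higher (21.4% called, below the 22.9% of all genes), with 14 lower without PBS E2 replicate 1 and 4 higher without DOX OIL replicate 1. Wnt6, a ligand, read 2.34, 15.1 and 17.6 CPM in PBS E2 and 0.878, 1.81 and 0.780 in DOX E2. Sfrp2 and Dkk3, secreted modulators of Wnt, fell to 15.3 to 53.7 and 34.1 to 53.6 CPM in PBS E2 and to 7.43 to 10.5 and 15.4 to 18.9 in DOX E2. Wnt5a, another ligand, was the higher member, at 78.7 to 84.9 CPM in PBS E2 and 149 to 225 in DOX E2.

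Genes of the extracellular matrix went both ways. Tnc (chr4:63959785-64047015), the matrix glycoprotein tenascin C, stood at 41.5 to 75.1 CPM in the OIL groups, 106, 92.5 and 85.9 in PBS E2 and 478, 529 and 452 in DOX E2. Its interaction was 2.36 (SE 0.43, adjusted p = 0.0018). The list of matrix remodelling held 6 of 31 higher and 3 lower (29% called), with 5 lower without DOX E2 replicate 3. Timp2, an inhibitor of matrix proteases, fell to 227, 247 and 355 CPM in DOX E2 against 628, 754 and 906 in PBS E2 (interaction -1.29, SE 0.23, adjusted p = 0.0016). Of collagens and their partners 8 of 35 were lower and 2 higher (28.6% called), and 5 were lower without any of PBS OIL replicate 1, DOX OIL replicate 2, DOX E2 replicate 1 or DOX E2 replicate 2. Without PBS OIL replicate 2 it was 12, and 0 were higher without any of 8 single libraries. Dcn, the proteoglycan decorin, read 2431 to 3806 CPM in PBS E2 and 1265, 973 and 1846 in DOX E2.

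Smooth muscle contraction genes had 6 of 25 lower and 1 higher (28.0% called), and 3 lower without DOX OIL replicate 3 or PBS E2 replicate 2 and 9 without DOX OIL replicate 1. Smtn, which binds actin in contractile muscle, read 367, 566 and 511 CPM in PBS E2 and 127, 105 and 148 in DOX E2 (interaction -2.02, SE 0.47, adjusted p = 0.0075). Gja1, the gap junction protein connexin 43 that couples myometrial cells, was the higher member, at 93.5 to 132 and 291 to 375 CPM. Summed smooth muscle markers were 10255 to 11051 CPM in PBS E2 and 8748 to 10641 in DOX E2, after 7527 to 8791 in PBS OIL and 6670 to 14838 in DOX OIL. Summed stromal markers were 4924 to 6835 CPM in PBS E2 and 4203 to 5187 in DOX E2, and the part of either in these results was not tested.

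The complement list had 5 of 22 lower and 0 higher (22.7% called, against 22.9% of all genes called and 12.8% lower). It had 8 lower without DOX E2 replicate 3. Its median interaction of -0.87 was -0.20 without DOX OIL replicate 2 and 0.015 with the adipocyte covariate. Averaged over its members, log2 CPM stood at 5.42 in PBS OIL replicate 2 and 5.44 in DOX OIL replicate 2, above the 4.35 to 4.56 of the other OIL libraries. C1ra, a protease that starts the cascade, stood at 93.8 to 121 CPM in PBS E2 and 39.1 to 66.8 in DOX E2. In the vascular list 4 of 29 were higher and 4 lower (27.6% called), and 8 were higher without PBS E2 replicate 1. Angpt1, the ligand that quiets vessels, fell to 0.464 to 1.15 CPM in DOX E2 against 4.40 to 6.12 in PBS E2 (interaction -3.32, SE 0.41, adjusted p = 0.00017). Nrp1, a coreceptor for VEGF, rose to 274 to 311 CPM against 77.6 to 140 (interaction 1.595). Bdkrb1, the inducible receptor for kinins, rose from 0.466 to 1.67 CPM in the OIL groups to 3.25 to 5.15 in PBS E2 and 21.9 to 31.6 in DOX E2. Of mesothelial markers 4 of 9 were lower (2 to 7 without single libraries, the highest without DOX E2 replicate 3), and their summed level of 280 to 325 CPM in DOX E2 lay below the 361 to 522 of all other libraries, a shift whose part in these results was not tested.

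Of 24 genes of fatty acid oxidation 5 were lower and 0 higher (20.8% called, against 22.9% of all genes called and 12.8% lower). The count was 5 without each library in turn. Acadm, the first-step dehydrogenase for medium-chain acids, read 54.9, 48.1 and 50.8 CPM in PBS E2 and 19.3, 18.4 and 22.2 in DOX E2 from 84.3 to 105 in the OIL groups. Its interaction was -1.36 (SE 0.15, adjusted p = 8.0e-05), and that of Hadh, the next but one enzyme of the cycle, was -1.34. Fat cells store these acids, and 4 of 23 adipocyte markers were lower (17.4%, 2 to 7 without single libraries, the highest without DOX E2 replicate 3). Their summed level was 1612 to 4985 CPM in PBS OIL, 1009 to 1908 in DOX OIL, 1449 to 10176 in PBS E2 and 1010 to 1422 in DOX E2. Their median log2 response to E2 was 0.35 in the PBS arm and -2.07 in the DOX arm. The median interaction was -2.3, and -0.71 without PBS E2 replicate 1. Averaged over members, log2 CPM was 4.72, 5.34 and 4.26 in DOX OIL and 1.54, 1.49 and 4.22 in DOX E2. Adipoq, which defines fat cells, read 268, 15.99 and 58.7 CPM in PBS E2 and 0, 0.103 and 12.6 in DOX E2. With the adipocyte score as a covariate 5 genes of fatty acid oxidation were lower and the list median went from -0.13 to -0.014.

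In glycolysis 5 of 24 were higher and 4 lower, with 9 higher without PBS E2 replicate 1, 3 without any of 4 other libraries, and 2 lower without DOX OIL replicate 1. Gapdh and Eno1, of its later steps, read 184 to 281 and 142 to 189 CPM in PBS E2 and 379 to 450 and 247 to 281 in DOX E2. Pfkm, the muscle form of phosphofructokinase, fell to 17.1, 28.8 and 27.8 CPM in PBS E2 and 8.42, 6.76 and 7.02 in DOX E2 (interaction -1.67, SE 0.24, adjusted p = 0.00042). Redox genes gave 10 of 33 higher and 4 lower, with 5 higher without PBS E2 replicate 3 or DOX E2 replicate 1 and 2 lower without PBS E2 replicate 3 or DOX OIL replicate 2. Sod2, the mitochondrial superoxide dismutase, rose to 72.3 to 80.9 CPM in PBS E2 and 124 to 132 in DOX E2. Cat, the peroxisomal catalase, fell to 49.4 to 89.8 and 21.1 to 23.2 CPM.

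Signalling lists with calls in both directions held single members with large interactions. Ptges, which makes prostaglandin E2, read 198, 68.1 and 116 CPM in PBS E2 and 212, 340 and 307 in DOX E2 (interaction 1.497, SE 0.39, adjusted p = 0.014). Ptgfr, the receptor for prostaglandin F2 alpha, fell to 3.93 to 7.59 CPM in PBS E2 and 2.995 to 3.82 in DOX E2 from 25.2 to 33.8 in PBS OIL and 36.6 to 52.7 in DOX OIL. The prostaglandin list had 3 of 22 higher and 3 lower (27.3% called), and 1 lower without any of 5 single libraries. Of 29 genes of activin, BMP and their antagonists 2 were higher and 2 lower (13.8% called, below the 22.9% of all genes). The lower count ran from 1 to 4 without single libraries. Inhba, the activin subunit, stood at 2.28 to 4.90 CPM in PBS E2 and 11.95 to 18.5 in DOX E2. Tgfb2, a growth factor of the same superfamily, stood at 21.7 to 38.5 and 69.0 to 82.9.

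In the list of BCL2 family and caspases 4 of 28 were higher and 5 lower (32.1% called). Only 3 were lower without DOX OIL replicate 2 or DOX E2 replicate 2. Birc3, an inhibitor of apoptosis, read 24.4 to 31.7 CPM in PBS E2 and 52.4, 59.2 and 54.3 in DOX E2 (interaction 0.91, SE 0.15, adjusted p = 0.0012). Of 34 interferon-stimulated genes 3 were lower and 0 higher (8.82% called, against 22.9% of all genes called and 12.8% lower). The list's median log2 difference of DOX against PBS was 0.62 under OIL and 0.47 under E2. Averaged over members, log2 CPM was 3.63, 3.99 and 3.88 in PBS OIL and 4.44, 4.97 and 4.08 in DOX OIL. The lower count was 1 without DOX OIL replicate 2 and 6 without DOX E2 replicate 3. Irf1, a transcription factor of the interferon response, did not pass in the PBS arm and fell in the DOX arm to 38.8, 40.1 and 54.1 CPM from 76.3 to 109 (interaction -1.25, SE 0.19, adjusted p = 0.00056).

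Among the larger rises of greatest size, Slc6a13, a carrier of GABA and taurine, stood at 0.207 to 2.04 CPM in the OIL groups, 10.2, 0.596 and 3.25 in PBS E2 and 38.1, 40.8 and 23.2 in DOX E2 (interaction 4.38, SE 1.02, adjusted p = 0.0076). Cyp26b1, which degrades retinoic acid, read 58.8, 9.70 and 23.2 CPM in PBS E2 and 185, 95.1 and 111 in DOX E2 (interaction 3.43). Klk1, a kallikrein protease long known as estrogen-induced, read 1.84 to 11.9 and 25.9 to 39.5 CPM, and its call was lost without PBS OIL replicate 2, DOX OIL replicate 1, DOX OIL replicate 3 or PBS E2 replicate 3. Msr1 and Fabp5, a scavenger receptor of macrophages and a lipid carrier, were far higher in PBS OIL replicate 2, at 36.5 and 75.3 CPM, than in the other PBS OIL libraries, at 0.936 and 1.72 CPM for Msr1 and 5.44 and 4.47 for Fabp5. Neither interaction was called without that library or without any of at least 8 others.

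Among larger falls, Lrrtm1 (chr6:77242689-77257791), a synaptic adhesion protein, had an interaction of -6.39 (SE 1.22, adjusted p = 0.0024). It read 0.195, 9.11 and 6.92 CPM in PBS E2 and 0.155, 0.103 and 0.164 in DOX E2, after 5.43 to 6.57 in PBS OIL and 10.2 to 15.95 in DOX OIL. PBS E2 replicate 1 thus sat with the DOX E2 libraries, and the call held without it. Gpr81, the lactate receptor found in fat cells, read 1.301 to 7.85 CPM in PBS E2 and 0 to 0.329 in DOX E2. Ypel4, of a conserved family of zinc-binding proteins, read 4.96 to 10.5 and 0.309 to 0.723 CPM.

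A smaller response after DOX was rarer. The 113 smaller rises had a median log2 response of 0.79 in the PBS arm and 0.10 in the DOX arm, and 36 of them still passed in the DOX arm. The 173 smaller falls had medians of -0.66 and 0.06, with 30 passing. Members of either class that did not pass in the DOX arm could lean the other way there. Cd248, endosialin of stromal and vascular cells, read 45.6 to 85.6 CPM in PBS OIL, 45.7, 233 and 288 in PBS E2, 49.5 to 72.0 in DOX OIL and 20.01 to 39.6 in DOX E2 (interaction -2.58, SE 0.65, adjusted p = 0.011). Its rise was in 2 of 3 PBS E2 libraries, and replicate 1 stayed at the OIL level. Fgfr3, a receptor for fibroblast growth factors, rose in both arms, to 56.4 to 77.4 CPM in PBS E2 and 33.2 to 53.6 in DOX E2.

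Several smaller rises lost their call when 1 library was left out. Chac1, a glutathione-degrading target of ATF4, read 29.3, 4.99 and 9.90 CPM in PBS E2 and 2.43, 2.58 and 5.09 in DOX E2, and its call ended without PBS E2 replicate 1 and without 6 other libraries singly. Slc7a11, the cystine carrier, read 32.1 to 51.9 and 5.67 to 14.3 CPM, and lost its call without PBS E2 replicate 1, PBS E2 replicate 3, DOX OIL replicate 1, DOX E2 replicate 2 or DOX E2 replicate 3. Ccbp2, the scavenging chemokine receptor now called Ackr2, read 16.9 to 29.5 and 1.498 to 6.61 CPM, and lost its call without any of 5 libraries. Tmem45b, a membrane protein, lost its call without PBS E2 replicate 2. Its OIL groups did not overlap, at 0.418 to 0.746 CPM with PBS and 8.42 to 12.6 with DOX.

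Among smaller falls, Slc5a9, a sodium-linked sugar carrier, read 2.61 to 5.30 CPM in PBS OIL, 1.03 to 1.46 in PBS E2, 2.42 to 3.72 in DOX OIL and 3.57 to 4.91 in DOX E2 (interaction 2.03, SE 0.45, adjusted p = 0.0058). Aplnr, the receptor for apelin in endothelium, fell to 5.80 to 11.5 CPM from 21.1 to 35.4 in the PBS arm and did not pass in the DOX arm, at 17.1 to 38.8 from 27.9 to 33.0. Oit1 and Fam179a had the same shape, with interactions of 1.96 and 1.93. Spp1, the matrix protein osteopontin, read 319 CPM in PBS OIL replicate 2 and 1.42 to 3.09 in every other library of the 4 groups. Its interaction of 5.43 was not called without that library or without any of 9 others.

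The response changed sign for genes of several kinds. Fbxl22 (chr9:66508459-66514593), a muscle ubiquitin ligase component, rose from 18.5 to 25.8 CPM to 32.5, 37.1 and 34.2 in the PBS arm and fell from 23.3 to 48.4 CPM to 11, 9.13 and 13.9 in the DOX arm. Its interaction was -2.30 (SE 0.34, adjusted p = 0.00054). Star, which brings cholesterol into mitochondria for steroid synthesis, rose to 30.2 to 37.0 CPM and fell to 11.4 to 15.0. Id3, an inhibitor of helix-loop-helix factors and a BMP target, rose to 155 to 247 CPM and fell to 54.1 to 82.4 (interaction -1.58). Fgfr1, another receptor for fibroblast growth factors, rose to 156 to 213 CPM and fell to 88.5 to 114. In each of the 4 genes the PBS E2 and DOX E2 libraries did not overlap.

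Kcnh1 (chr1:192190774-192510159), a voltage-gated potassium channel, went the other way. It fell from 1.69 to 2.66 CPM to 0.473, 1.25 and 0.943 in the PBS arm and rose from 1.04 to 2.16 CPM to 5.11, 8.77 and 6.08 in the DOX arm, an interaction of 3.27 (SE 0.63, adjusted p = 0.0025). Slc2a6, a hexose transporter, read 1.57 to 1.95 CPM in PBS E2 and 3.94 to 5.78 in DOX E2. Pik3cg, the PI3K catalytic subunit of leukocytes, read 3.98 to 5.76 and 8.30 to 10.99 CPM, and Nsun3, a methyltransferase for a mitochondrial tRNA, 5.19 to 5.57 and 9.82 to 12.03. Ddit4 belongs here by rule and is described above.

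**Figure D5:**
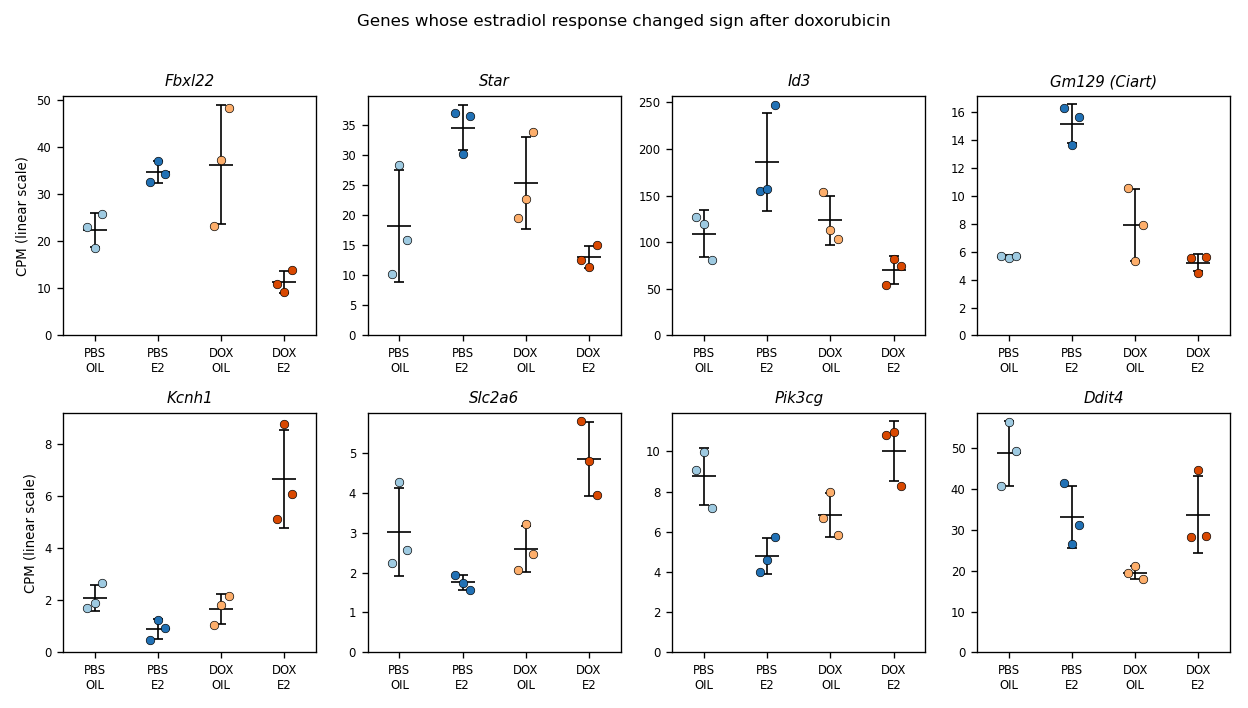
Points are CPM of single libraries on a linear axis from 0, with the mean and SD (n = 3) as bars. In the upper row E2 raises the gene in the PBS arm and lowers it in the DOX arm, as for Fbxl22 at 32.5 to 37.1 CPM in PBS E2 and 9.13 to 13.9 in DOX E2, and in the lower row the directions are exchanged.

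Doxorubicin is known to damage DNA and activate p53. Of 34 targets of p53 6 were higher and 3 lower (26.5%), and of 35 genes of DNA damage signalling and repair 4 were higher and 1 lower (14.3%), against 22.9% of all genes. In the second list 1 was higher without DOX OIL replicate 2, PBS E2 replicate 3 or DOX E2 replicate 1. Cdkn1a, the p53 target p21, rose with E2 in both arms, to 89.6 to 166 CPM in PBS E2 and 172 to 206 in DOX E2 from 16.6 to 30.1 in PBS OIL and 25.5 to 63.8 in DOX OIL, and its interaction was not called (-0.35, SE 0.47, adjusted p = 0.62). Mdm2, the ligase that restrains p53, was called with 102 to 111 CPM in DOX E2 against 72.4 to 81.7 in PBS E2 (interaction 0.41, adjusted p = 0.049), and the call was lost without any of 8 single libraries. Ephx1, an epoxide hydrolase, fell to 68.9 to 98.1 CPM in PBS E2 and 33.8 to 43.6 in DOX E2. Top2a and Top2b, the isoforms of topoisomerase II, were not called (0.91 and -0.03, adjusted p = 0.22 and 0.90).

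No member was called among 30 genes of the mitotic spindle, 27 immediate early factors, 13 mitochondrially encoded genes and 16 genes of MHC class II presentation by the edgeR test. At an unadjusted p under 0.05 these lists had 1, 3, 1 and 1 members, DESeq2 called 0, 0, 1 and 0, and voom 0, 2, 1 and 2. The median interaction of the mitotic list was 0.58, but 0.12 without DOX E2 replicate 1, 0.29 without PBS OIL replicate 1, 0.36 without DOX OIL replicate 3, 0.93 without PBS E2 replicate 2 and 0.21 with the adipocyte covariate. Mki67, a marker of dividing cells, ranged from 7.07 to 22.2 CPM in PBS E2 and from 7.17 to 21.5 in DOX E2 (interaction 0.54, SE 0.63, adjusted p = 0.57). Of 26 genes of G1 cyclins, E2F and CDK inhibitors 4 were lower and 0 higher (15.4% called, against 22.9% of all genes called and 12.8% lower). Only 2 were lower without PBS OIL replicate 1, DOX OIL replicate 3 or DOX E2 replicate 3. The called members included Cdkn1b, the cell cycle inhibitor p27, and Rbl2, a pocket protein of quiescent cells. They stood at 50.5 to 76.9 and 35.8 to 55.6 CPM in PBS E2 and 42.6 to 46.6 and 19.5 to 29.2 in DOX E2. Areg, an epidermal growth factor ligand, was close to 0 throughout, at 0 to 0.111 CPM in PBS E2 and 0.206 to 0.465 in DOX E2, and its interaction was not called.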

How the data were processed

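RNA of whole mouse uterus was sequenced in 18 libraries of 6 groups, made with a total RNA kit per the labels' protocols. The authors deposited 1 table of read counts per gene symbol, not normalized. For the reads behind it, the submitters' processing notes list trimming (Trimmomatic 0.36) and quality control (FastQC 0.11.5), alignment (HISAT2 2.1.0, SAMtools 1.6) to GRCm38, StringTie 1.3.4d, and DESeq2 1.18.1 under R 3.4.4. The sources used here do not give strand, annotation release or counting rules, so reads of overlapping, antisense and near-identical genes may be shared.

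Of 22238 symbols, 15494 passed edgeR's filterByExpr. All 18 libraries were fitted together (12 residual degrees of freedom) with TMM scaling and the robust quasi-likelihood test of edgeR 4.0.16 in R 4.3.3. P-values were adjusted by Benjamini-Hochberg over all tested genes, and a call is an adjusted p under 0.05. SE is the absolute log2 fold change over the root of F. CPM are on TMM-scaled library sizes. Classes follow the calls of the E2 response in each arm and the signs of the arms that passed. Limma 3.58.1 (voom) and DESeq2 1.42.0 gave alternatives. Coordinates are from GENCODE M21 and promoter stretches from RefSeq. The code was tested on simulated counts.

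The comparison, its 46 function and 15 cell type lists and the rule for named genes were chosen with earlier results of these data known. The rule took the 4 called members of lowest p per list, the 5 largest interactions per class (mean log2 CPM of at least 1, no clone names) and a few fixed genes. Chosen after their values were seen were Adipoq, Arntl, Atf4, Bhlhe41, Calr, Canx, Clock, Creld2, Cry1, Ddit3, Deptor, Derl3, Dnajc3, Epcam, Ero1lb, Fgfr1, Fgfr3, Gm129, Hspa8, Krt5, Lif, Pdia6, Per2, Pik3ip1, Wnt5a and Xbp1. A few genes that the rule names are not reported here.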

Additional observations from a re-analysis of the deposited data

Results flagged for a closer look

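The estradiol response passed in both arms with opposite directions for 61 genes, each also called by the test of the interaction itself. Among the 5 largest turns from a rise to a fall, the log2 interaction was -2.30 for Fbxl22, -1.89 for Star, -1.84 for Mpp2, -1.77 for Irgm2 and -1.71 for Gata5. Among the 5 largest turns from a fall to a rise it was 3.27 for Kcnh1, 1.68 for Slc2a6, 1.43 for Pik3cg, 1.34 for Ddit4 and 1.29 for Nsun3. The interaction of Gata5 was not called without any of PBS OIL replicate 1, DOX OIL replicate 3, DOX E2 replicate 1 or DOX E2 replicate 2, while the other 9 kept their call without each library in turn. Groups of 3 libraries are too small for a test of single outlying samples.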

How the results depend on the processing

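The 3553 interaction genes numbered 2427 to 4898 as each library was left out, and of the original calls 2362 to 3420 were still called, with at most 1 change of sign. The ranges were 844 to 2357 for the 1568 higher genes, 1525 to 2541 for the 1985 lower ones, 1077 to 1838 for those of at least 2-fold, 2240 to 4392 for larger, 140 to 338 for smaller and 37 to 110 for reversed responses. Voom with quality weights gave 5331 interaction genes, 2616 higher, 611 smaller and 150 reversed. The 12 libraries alone gave 2414 interaction genes, 880 of them higher, 146 smaller and 34 reversed. The adipocyte score as a covariate gave 162 smaller and 37 reversed. The other alternatives, apart from single libraries left out, kept each count within 1.5 times. The cause of these shifts was not tested.

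Replicate numbers were not treated as pairs. Between samples of the same number r ran from -0.28 to 0.36, over 0.1 in 12 of 45 pairs. In replicates 1, 2 and 3 it was 0.28, 0.36 and 0.085 between PBS OIL and DOX OIL. Between PBS OIL and PBS E2 it was -0.15, -0.28 and 0.11. Whether a replicate number stands for a shared batch was not tested. A fit with the replicate number as a block called 3613 genes.

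Among the named genes, signs changed for 4 whose interaction was not called. Across libraries left out in turn, Ltf ran from -0.52 to 0.97 (0.035, 0.065 and 0.32 among the positive values), Top2b from -0.17 to 0.051 (0.0039, 0.026 and 0.028 among them) and Pgr from -0.018 to 0.39. Ltf had 0.24 with voom and Cdkn1a 0.084 with the adipocyte covariate. Of the 211 called genes named by the rule, 167 kept the call without each library in turn and 44 did not. Values under 1 CPM rest on few reads.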
